A study of Rattus norvegicus with 196 samples.

Results

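The medial preoptic area (mPoA) of male rats given fluoxetine (FT) was compared with that of control rats (Sham) by bulk RNA-seq. Libraries were chosen by the region label MPOA, which holds 6 of the 196 libraries of the series, 2 FT (replicates 4 and 5) and 4 Sham (replicates 1, 3, 4 and 5). The rats were of the Long-Evans strain, bred in the study's own facility from Charles River stock, and were 2 months old at the start. FT animals took up 18 mg/kg fluoxetine daily with their drinking water over 6 weeks, and Sham animals drank water alone. Each library is a pool of mPoA punches from 10 animals, so the spread between libraries is a spread between pools and single animals cannot be seen. In the study, FT and Sham punches with the same replicate number were handled side by side. FT 4 with Sham 4, and FT 5 with Sham 5, are called replicate pairs here, and Sham 1 and Sham 3 have no FT partner.

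The mPoA is a hypothalamic region that takes part in parental and sexual behaviour, body temperature and sleep, and its neurons are a mix of GABAergic and glutamatergic cells that also make peptides. Galanin neurons of this region are known for their part in parental behaviour. Fluoxetine blocks the serotonin transporter, and serotonin fibres from the raphe reach the region. Neuropeptides are cut from larger precursors, stored in dense-core vesicles and act on receptors of neighbouring cells, while ion channels and release proteins set how often neurons fire and how much transmitter they let go.

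Between 6612468 and 22938253 reads per library were counted on 29188 Ensembl transcripts. Sham 3 stood apart from the other libraries. It had the fewest reads, its 50 most abundant transcripts took 63.8% of them against 25.0% to 39.5% in the other 5, and its normalisation factor was 0.477 against 0.990 to 1.26. One unnamed transcript, ENSRNOT00000074325, reached 181272 CPM there, where CPM are counts scaled to a common library size with TMM factors. Of the preoptic genes listed, 3 had a name here, and only galanin (Gal) among them marks the region in particular. Its mean level in mPoA Sham libraries (116 CPM) ranked 2 among 25 regions, next to LC at 119 CPM. For this ranking TMM factors were computed within each region, so the levels are not on one common scale. Oxytocin (Oxt) did not behave evenly, with 3558 CPM in Sham 3 and 3.94 to 14.8 CPM in the other 5 libraries.

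Differentially expressed genes (DEGs) are transcripts whose log2 fold change (log2FC) was 0.32 or more in size, with an adjusted p (Benjamini-Hochberg) up to 0.1, in edgeR's quasi-likelihood test. The replicate number was a block in this test. Of 14886 transcripts tested, 1428 (9.59%) were DEGs, 722 (4.85%) higher and 706 (4.74%) lower in FT. The median log2FC was 1.16 among the higher and -1.29 among the lower DEGs, against 0.01 over all transcripts tested. Higher DEGs had median levels of 21.3 to 24.8 CPM in the 4 Sham libraries and 47.7 and 59.3 CPM in FT. Lower DEGs had medians of 10.4 to 22.2 CPM in Sham and 5.43 and 5.12 CPM in FT.

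Because of the block, these fold changes came from replicate pairs 4 and 5 alone, with 1 residual degree of freedom and a spread borrowed across transcripts. The borrowed part counted as 60.5 degrees of freedom with the block and 4.29 without it. The SE and p of a gene thus rest mostly on that borrowed spread. In the edgeR fit without the block, where all 4 Sham libraries served as controls, 1 DEG (0.00672%) was left, St7l, and 1475 transcripts had an unadjusted p under 0.05. DESeq2 with the block called 584 DEGs (4.5% of those it tested), of which 574 were edgeR DEGs with the same direction. Without the block DESeq2 called 560, of which 497 were among the 1428 in the same direction. Of the 1428 DEGs, 1413 had the same sign in both pairs. Both FT libraries lay outside all 4 Sham libraries for 1038 DEGs (72.69%) against 24% of all transcripts tested and 44.5% of those with a gene name. Sham 3 lay above both FT libraries for 120 of the higher DEGs, and without Sham 3 the block fit called 746 higher and 721 lower.

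**Figure D1:**
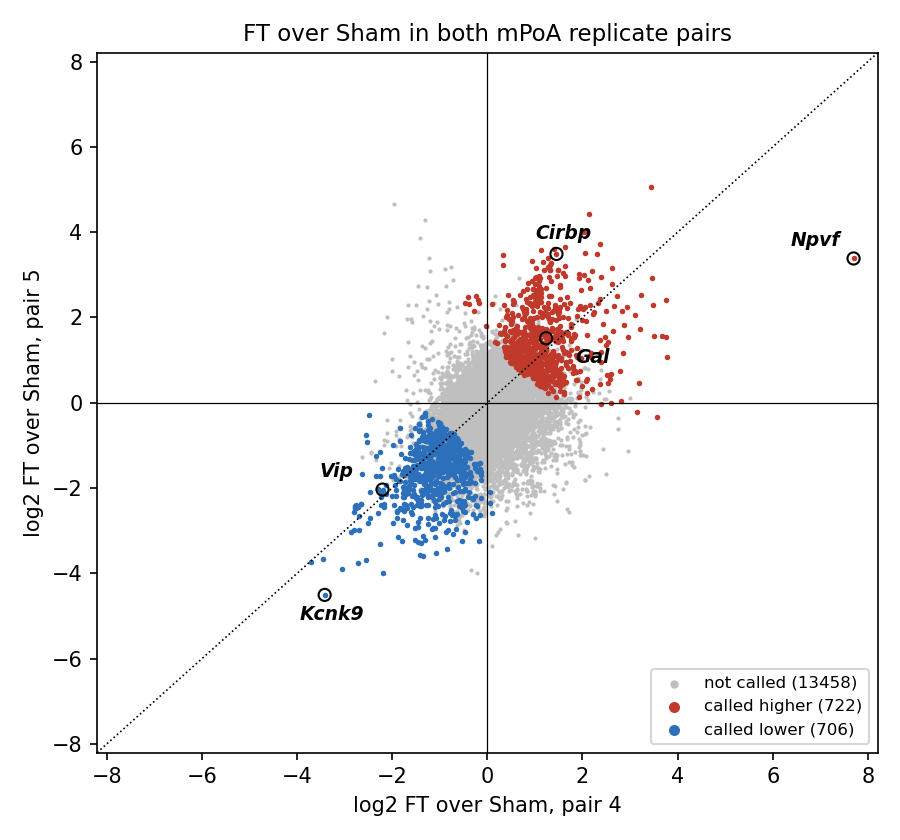
Each point is a tested transcript, with the log2 ratio of FT over Sham CPM in pair 4 on the horizontal axis and in pair 5 on the vertical axis. Red points are the 722 DEGs called higher, blue points the 706 called lower and grey points the rest. Npvf lies farthest to the right, at 7.70 in pair 4 and 3.38 in pair 5, and Kcnk9 lies far to the lower left, at -3.42 and -4.50.

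Gene names were known for 1837 of the transcripts tested, from the study's list of transcripts changed in several regions. Of these named transcripts 42.7% were DEGs, 23.7% higher and 19% lower, so counts in the gene groups below are to be read against these shares, and a high count in a group of named genes is not independent evidence. Genes of a group without a name in that list were not analysed here.

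The 5 peptide genes called are Npvf, Hcrt, Gal, Vgf and Vip. The bases before their transcription start are shown so that the regulatory sequence can be read beside the values. Each line gives 250 bases 5′ to 3′ on the coding strand, from RefSeq on the GRCr8 assembly, which is not the rn5 assembly of the counts. Capitals mark TGACGTCA (the full cAMP response element), TGACG (its core, also contained in the full element), CACGTG (an E-box), all searched on both strands, and TATAA (the TATA box core), searched on the coding strand.
Npvf, chr4:81047046-81047295, minus strand: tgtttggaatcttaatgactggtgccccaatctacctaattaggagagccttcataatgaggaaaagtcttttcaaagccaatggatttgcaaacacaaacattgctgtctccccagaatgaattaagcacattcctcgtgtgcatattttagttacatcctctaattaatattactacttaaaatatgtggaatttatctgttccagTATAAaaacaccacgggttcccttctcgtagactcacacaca
Hcrt, chr10:86191525-86191774, minus strand: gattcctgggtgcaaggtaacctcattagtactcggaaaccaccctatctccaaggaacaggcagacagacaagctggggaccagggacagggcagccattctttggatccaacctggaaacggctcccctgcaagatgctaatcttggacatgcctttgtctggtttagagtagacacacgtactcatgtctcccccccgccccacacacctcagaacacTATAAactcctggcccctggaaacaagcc
Gal, chr1:210084573-210084822, minus strand: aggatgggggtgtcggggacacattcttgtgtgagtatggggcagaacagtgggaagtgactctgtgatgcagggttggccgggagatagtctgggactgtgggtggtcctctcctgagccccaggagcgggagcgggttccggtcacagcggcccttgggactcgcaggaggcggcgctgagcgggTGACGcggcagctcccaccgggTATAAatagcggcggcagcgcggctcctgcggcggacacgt
Vgf, chr12:25277021-25277270, minus strand: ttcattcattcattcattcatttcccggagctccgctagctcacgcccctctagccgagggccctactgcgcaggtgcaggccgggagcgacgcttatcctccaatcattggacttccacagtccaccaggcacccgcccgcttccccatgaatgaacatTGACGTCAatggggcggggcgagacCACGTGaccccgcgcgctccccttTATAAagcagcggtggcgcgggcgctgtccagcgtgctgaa
Vip, chr1:44470230-44470479, plus strand: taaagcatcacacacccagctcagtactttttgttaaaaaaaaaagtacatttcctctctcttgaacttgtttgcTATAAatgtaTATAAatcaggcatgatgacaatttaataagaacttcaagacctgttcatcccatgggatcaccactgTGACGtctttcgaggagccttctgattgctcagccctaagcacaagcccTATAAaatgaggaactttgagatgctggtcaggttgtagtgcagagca

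All 5 windows held TATAA, which 16.7% of 33469 rat promoter windows of this length hold. The core element TGACG was found in Gal, Vgf and Vip (18.2% of windows), starting 63, 90 and 97 bases before the start. Vgf also held the full element (1.59% of windows) and an E-box (5.59%). Neither element was found in the Npvf and Hcrt windows, which says only that these letters are absent there. These matches are descriptions of sequence and were not tested as binding sites.

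Of 13 neuropeptide and hormone genes tested, 4 were called higher, 1 lower and 8 were not called. Npvf encodes the precursor of the RFamide-related peptides, which act on the reproductive axis, and is made in the dorsomedial hypothalamus. It had 986 reads in FT 4 and 63 in FT 5, against 4 in Sham 4, 2 in Sham 5 and 0 in Sham 1 and Sham 3. In normalised units this was 62.6 and 2.53 CPM in FT and at most 0.181 CPM in any Sham library. Both FT libraries lay above all Sham libraries, but the ratio between the FT libraries was larger than that between FT 5 and Sham 5. The ratio was 346 in pair 4 (95% exact interval from counting error alone, 135 to 1272) and 19.1 in pair 5 (5.06 to 161). The edgeR log2FC was 7.56 ± 0.61 (SE, adjusted p = 2.69e-14), while DESeq2 did not call the gene (adjusted p = 0.126). On the log2 scale the pairs gave 7.70 and 3.38. The SE comes mostly from the spread borrowed across transcripts and does not measure this difference between the pairs.

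Hcrt, the orexin precursor of lateral hypothalamic neurons that sustain wakefulness, had 3.94 and 1.00 CPM in FT 4 and FT 5. It had 0.181 and 0.266 CPM in Sham 4 and Sham 5, 0.555 CPM in Sham 1 and 10.2 CPM in Sham 3. FT exceeded Sham in both pairs, and Sham 3 exceeded every other library. Its log2FC was 3.30 ± 0.73 (edgeR, adjusted p = 0.00141), from 62 and 25 reads in FT and 4 reads in each paired Sham library.

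Cga encodes the common alpha subunit of pituitary glycoprotein hormones. It was among the 10 largest rises, with 17.8 CPM in FT 4, 1.61 in FT 5 and 0 to 1.81 CPM in the Sham libraries. FT 5 lay within the Sham range. The mean Sham level of Npvf and of Cga was highest in Arc among the 25 regions, at 115 and 304 CPM, and that of Hcrt in VMH, at 232 CPM. The 5 measured markers of the dorsomedial, ventromedial, lateral and arcuate hypothalamus, Npvf and Hcrt among them, summed to 167 CPM in FT 4 and 55.1 in FT 5, against 40.6 to 217 CPM in Sham. Of the 4 tested, Npvf and Hcrt were called higher. The part of tissue from such neighbouring nuclei in these values was not tested. In bulk punches, a change in the number of cells of a type cannot be told apart from a change in the RNA each cell holds.

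Gal, the galanin precursor, had 165 and 160 CPM in FT 4 and FT 5 and 69.9 and 55.9 CPM in Sham 4 and Sham 5. Sham 1 and Sham 3, with 189 and 154 CPM, lay near or above the FT libraries. The log2FC of 1.38 ± 0.29 (edgeR, adjusted p = 8.8e-04) thus rested on the low values of the paired controls. Vgf, a secreted precursor induced by neurotrophins, showed 63.7 and 92.0 CPM in FT and 33.7 and 31.2 CPM in the paired Sham libraries. Its other controls had 53.9 CPM (Sham 1) and 79.3 CPM (Sham 3), the latter between the FT values. Vgf rose by a log2FC of 1.24 ± 0.27 (edgeR, adjusted p = 0.00145).

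Vip, a vasoactive peptide of suprachiasmatic and cortical neurons, was the called peptide gene that fell. It had 2.54 and 2.81 CPM in FT and 12.1, 11.9, 7.38 and 6.03 CPM in Sham 4, 5, 1 and 3. The FT libraries were close to each other and below every Sham library. The log2FC was -2.16 ± 0.38 (edgeR, adjusted p = 4.72e-05), and DESeq2 called it too. Oxt (log2FC 0.29 ± 0.39) and Sst, the somatostatin precursor (-0.29 ± 0.30), were not called, with adjusted p of 0.790 and 0.707 in edgeR.

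**Figure D2:**
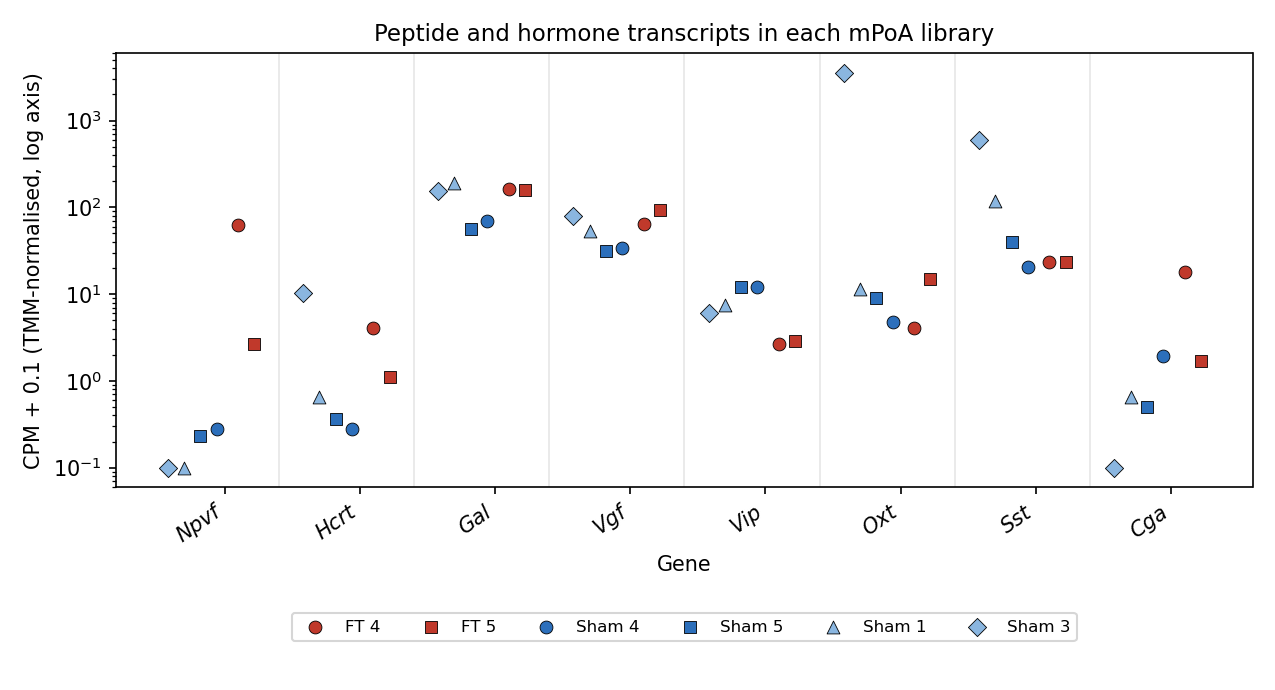
Levels of 8 peptide and hormone transcripts in each library, as TMM-normalised CPM plus 0.1 on a log axis, with red for FT, dark blue for the paired Sham libraries and light blue for Sham 1 and Sham 3. Npvf lies above Sham in both FT libraries (62.6 and 2.53 CPM) and Vip below (2.54 and 2.81 CPM), the FT values of Gal lie within the Sham range, and Oxt is high in Sham 3 alone (3558 CPM).

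Among receptors, Tacr3, the neurokinin B receptor, was lower, with 4.07 and 4.94 CPM in FT against 6.61 to 14.9 CPM in Sham. Its log2FC was -0.99 ± 0.36 (edgeR, adjusted p = 0.0869), and the call was lost in DESeq2. Htr1a, the serotonin 1A receptor and an autoreceptor of raphe neurons, had 1 read in each FT library and 7, 11, 17 and 19 reads in Sham 4, 5, 1 and 3. It was called lower (edgeR, adjusted p = 0.0765), and the Sham over FT ratio was 4.99 in pair 4 (counting interval 0.641 to 225) and 18.2 in pair 5 (2.64 to 783). DESeq2 did not call it (adjusted p = 0.273). None of the 3 tested genes of steroid signalling, which include the co-regulator Ncoa2, was called by edgeR. Ncoa2 had a log2FC of -0.87 ± 0.46 (adjusted p = 0.302).

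The named genes of neuronal excitability and release that were called were all lower. Of 5 potassium channel genes tested, 3 were lower and 0 higher. Of 9 calcium, sodium and HCN channel genes, 6 were lower and 0 higher. GABA genes gave 4 lower of 7, glutamate genes 3 lower of 8 and synaptic vesicle genes 6 lower of 9, with 0 higher in each. The medians of log2FC in these 5 lists were -1.83, -1.10, -0.75, -0.46 and -1.57, against 0.24 over named transcripts tested. Of the named transcripts 19% were lower. Only 5 of 44 potassium channel genes listed and 9 of 32 calcium, sodium and HCN channel genes had a name. For GABA, glutamate and vesicle genes these were 7 of 24, 8 of 35 and 9 of 42. They have names because the study called them in several regions, so the lists as a whole were not measured.

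Kcnk9, a leak channel that sets the resting potential, had the largest fall among the named DEGs. It showed 0.508 and 0.0804 CPM in FT, from 8 and 2 reads, and 6.61, 4.45, 0.555 and 24.4 CPM in Sham 4, 5, 1 and 3. The FT libraries were the lowest, with Sham 1 just above FT 4. Sham exceeded FT 13-fold in pair 4 (counting interval 6.43 to 30.7) and 55.4-fold in pair 5 (14.8 to 467), with a log2FC of -4.42 ± 0.56 (edgeR, adjusted p = 6.31e-08).

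Kcnj10, the inward rectifier of astrocytes that clears potassium, fell by 2.88 ± 0.54 on the log2 scale (edgeR, adjusted p = 1.34e-04). Its FT values of 0.889 and 0.402 CPM lay below the Sham range of 1.05 to 8.57 CPM. Hcn2, which carries the pacemaker current, had 1.46 and 2.05 CPM in FT against 3.28 to 17.1 CPM in Sham (log2FC -2.24 ± 0.41). Kcna2, a delayed rectifier, was lower by edgeR (log2FC -1.83 ± 0.56, adjusted p = 0.0323) and not called by DESeq2.

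Cacnb3, a calcium channel beta subunit, had 9.72 and 11.5 CPM in FT, below all Sham libraries at 26.1 to 67.3 CPM. Scn8a, a sodium channel of the axon initial segment, had 8.0 and 6.59 CPM in FT and 12.7 to 28.8 CPM in Sham. The T-type channel gene Cacna1i was called lower, but Sham 1 at 0.333 CPM lay below both FT libraries (0.445 and 0.723 CPM).

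In the inhibitory group, Gabrb2 (4.19 and 4.54 CPM in FT, 4.55 to 14.8 CPM in Sham) and Gabrd (3.81 and 3.42 CPM in FT, 5.27 to 10.6 CPM in Sham) encode subunits of the GABA-A receptor, Gabrd the extrasynaptic delta subunit. Slc6a11, the GABA transporter of astrocytes, had 9.40 and 6.91 CPM in FT against 19.5 to 40.6 CPM in Sham. The log2FC values were -1.59, -1.46 and -1.54, and DESeq2 called all 3. In the excitatory group Dlg4, the scaffold protein PSD-95 of the postsynaptic density, fell by 1.63 ± 0.31 on the log2 scale, with 4.45 and 4.42 CPM in FT and 7.44 to 76.5 CPM in Sham. Grik3 and Grm3 were called by edgeR alone.

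Cplx2, a complexin that holds vesicles ready for release, had 3.62 and 6.15 CPM in FT and 24.1 to 219 CPM in Sham. It fell by 2.87 ± 0.30 on the log2 scale (edgeR, adjusted p = 2.2e-10). Cds2, an enzyme of phosphatidylinositol supply, Amph, an endocytic adaptor, and Napb, a cofactor of SNARE disassembly, fell by 3.01, 1.90 and 1.73 on the log2 scale, each with both FT libraries below all Sham libraries. Other large falls were those of Gna11, a G protein alpha subunit (log2FC -2.96), Enho, the adropin gene (-2.76), and Paqr7, a membrane progestin receptor (-2.71).

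Of 4 neuron markers tested none was a DEG in edgeR, and Tubb3 had a log2FC of -0.88 ± 0.34 (edgeR, adjusted p = 0.119). The 4 summed to 346 and 395 CPM in FT and to 426 to 1336 CPM in Sham, with no marker at 0. The part of neuronal content in the lower excitability genes was not tested. Slc17a6, the vesicular glutamate transporter of hypothalamic neurons and one of the 4, had 138 and 112 CPM in FT and 54.3 to 134 CPM in Sham.

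**Figure D3:**
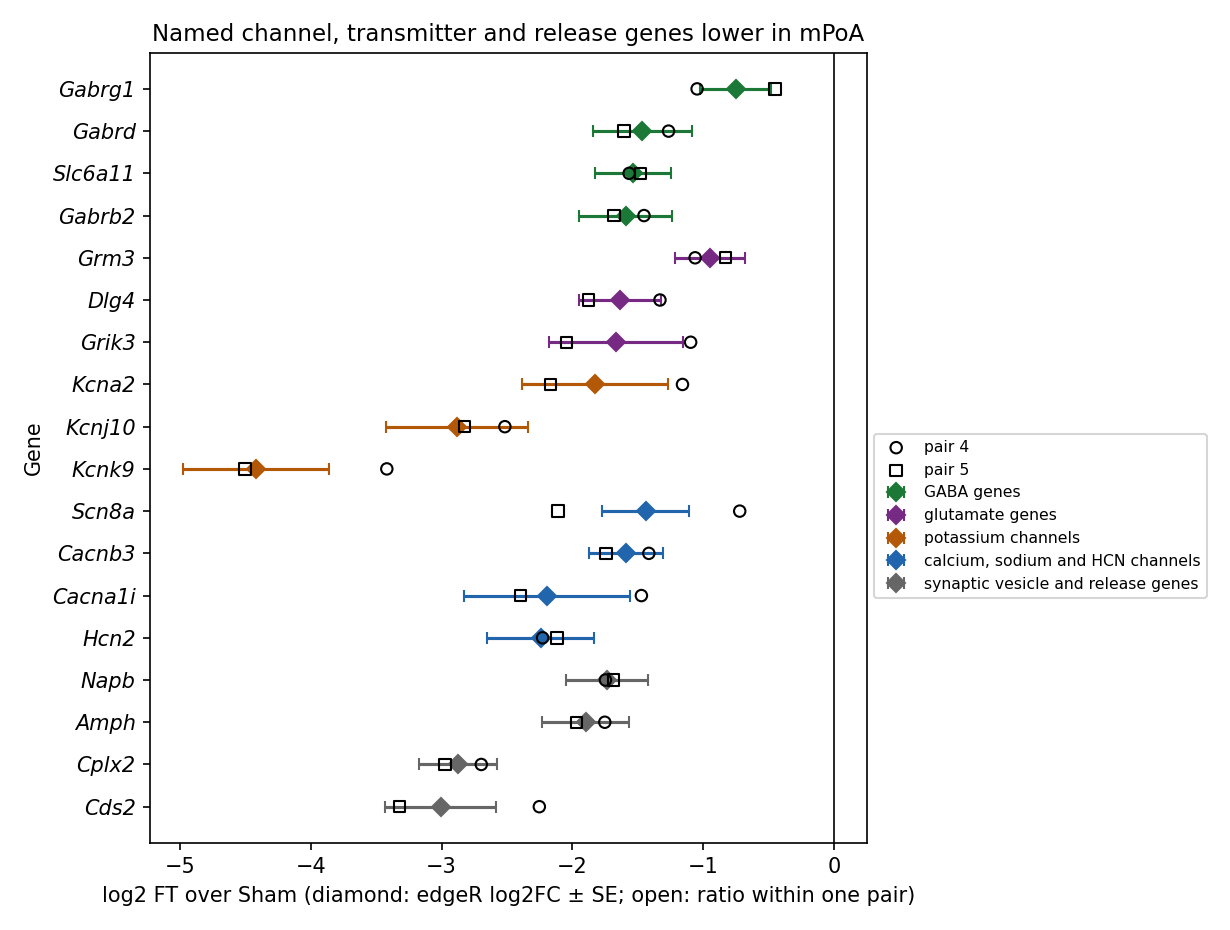
Log2 ratio of FT over Sham for up to 4 DEGs of each of 5 lists, with filled diamonds and bars for the edgeR log2FC ± SE and open symbols for the ratio within pair 4 (circle) and pair 5 (square). Every gene shown lies below 0 in both pairs, from Gabrg1 at -0.75 to Kcnk9 at -4.42.

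Astrocyte markers moved both ways. Of 5 tested, Slc6a11 and Kcnj10 were lower, while Slc7a10, a transporter of small neutral amino acids, rose to 116 and 155 CPM in FT from 30.8 to 42.8 CPM in Sham (log2FC 1.81 ± 0.28). Of 9 oligodendrocyte genes tested, Sox10, a lineage transcription factor, was higher (log2FC 0.78) and Erbb3 lower (-1.43), both by edgeR alone. Tnr, made by oligodendrocyte progenitors and a part of perineuronal nets, fell to 22.4 and 27.4 CPM from 35.9 to 60.3 CPM in Sham. None of the tested markers of choroid plexus (3), blood (2), meninges (2), striatum (6), septum (2), paraventricular and periventricular hypothalamus (4) or thalamus (4) was called by edgeR, 2 of 4 cortical markers were lower, and of 2 suprachiasmatic markers Vip was lower. Of the 2 cortical markers that were lower, Chrm1 had 0 and 2 reads in FT, where 0 reads allow up to 3. CAMK2A had 19.6 and 12.6 CPM in FT and 16.0 to 77.9 CPM in Sham. No marker of endothelial cells or ependyma had a name here.

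St7l was the DEG that edgeR called both with and without the block. It had 258 and 390 CPM in FT and 31.7 to 43.6 CPM in the 4 Sham libraries, a log2FC of 2.89 ± 0.31 (edgeR, adjusted p = 6.52e-10). Rap1gds1, an exchange factor for small GTPases, had 2823 and 5103 CPM in FT and 235 to 573 CPM in Sham (log2FC 2.89 ± 0.43). Fam189a1 had 29.6 and 26.4 CPM against 1.27 to 5.25 CPM. For these 3 genes the FT libraries were far above all controls. Vbp1 and RGD1566239 also ranked among the largest rises (log2FC 3.35 and 2.97). Yet Sham 3, at 182 and 75.8 CPM, exceeded the FT libraries, which had at most 11.6 and 4.94 CPM. Sham 1 also lay above both FT libraries for Vbp1 (14.8 CPM) and between them for RGD1566239 (3.50 CPM). The rises thus rested on the low paired controls, with 0.951 and 0.997 CPM of Vbp1 and 0.362 and 0.532 CPM of RGD1566239 in Sham 4 and Sham 5.

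Chromatin regulators were split, with 3 of 13 higher and 5 lower. Setdb1, a histone H3K9 methyltransferase, rose to 271 and 225 CPM in FT from 33.3 to 76.7 CPM in Sham (log2FC 2.01 ± 0.30, edgeR adjusted p = 2.41e-06). Trim28, the co-repressor that recruits Setdb1, had 350 and 493 CPM in FT and 95.2 to 134 CPM in Sham (log2FC 1.76 ± 0.32). Jmjd6, a hydroxylase of the Jumonji family, rose by a log2FC of 1.45 ± 0.27. Each of the 3 had both FT libraries above all Sham libraries and was called by DESeq2. Kmt2d, an H3K4 methyltransferase, was lower (log2FC -1.53), though its FT values of 7.24 and 5.18 CPM lay above the 4.39 CPM of Sham 1. Auts2, Hdac8 and Ehmt2 were lower by edgeR alone.

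Of 4 circadian and cold-inducible genes tested 2 were higher and 0 lower, and of 4 glucocorticoid and stress-responsive genes 2 were higher and 1 lower. Cirbp, an RNA-binding protein induced by mild cold, had 508 and 1208 CPM in FT and 107 to 189 CPM in Sham (log2FC 2.47 ± 0.39, edgeR adjusted p = 7.69e-06). DESeq2 did not call it (adjusted p = 0.115). Dbp, an output gene of the circadian clock, had 145 and 198 CPM in FT and 53.9 to 74.6 CPM in Sham (log2FC 1.19 ± 0.28). DEPP, a target of FOXO factors, rose to 11.2 and 11.7 CPM from 0.635 to 3.05 CPM (log2FC 2.53 ± 0.42). Tsc22d2 was higher and Txnip, a thioredoxin inhibitor, lower by edgeR alone. Fos, the immediate early gene used as a mark of neuronal activity, had 22.7 and 24.7 CPM in FT against 10.1, 16.7, 21.7 and 21.9 CPM in Sham 4, 5, 1 and 3. FT lay above all Sham libraries by less than the spread of Sham, with a log2FC of 0.86 ± 0.29 (edgeR, adjusted p = 0.0619), and DESeq2 did not call it.

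Of 30 oxidative phosphorylation transcripts, which encode subunits of the mitochondrial respiratory chain and ATP synthase, 6 were higher and 2 lower, with a median log2FC of 0.55. Over all named transcripts tested, 23.7% were higher and 19% lower, so the 6 called rises are no excess. Called or not, 24 of the 30 had a log2FC above 0, and the median over named transcripts tested was 0.24. The share above 0 over named transcripts was not computed. Of 75 genes listed, 29 had a name. Uqcrq, a subunit of complex III, had 468 and 590 CPM in FT, 36.6 and 200 CPM in Sham 4 and Sham 5, and 399 and 675 CPM in Sham 1 and Sham 3. The FT libraries lay within the Sham range, and the log2FC of 2.61 ± 0.40 came from the low paired controls. Ndufb2 and Ndufb4 of complex I gave log2FC values of 1.03 and 1.15, with Sham 3 above FT for both (907 and 793 CPM). The 2 lower subunits went down with both FT libraries below all Sham libraries, Uqcr11 (157 and 169 CPM in FT, 379 to 856 CPM in Sham) and Atp5d (log2FC -0.85 ± 0.29). None of the 6 higher transcripts had both FT libraries above all 4 Sham libraries.

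Of 27 cytosolic ribosomal protein transcripts, 3 were higher and 7 lower, with a median log2FC of -0.60. Rpl18 had 36.1 and 40.6 CPM in FT and 131 to 577 CPM in Sham (log2FC -1.83 ± 0.31), and Rps19 had 207 and 164 CPM against 424 to 475 CPM. Of the 3 higher, RPLP1 and Rplp1, 2 transcripts listed under one name in different case, had pair ratios of 2.82 and 2.60 in pair 4 and of 0.03 and -0.01 in pair 5, on the log2 scale. Transcripts of ribosomal and mitochondrial families have near-identical copies in the genome, so their counts are uncertain. The same holds for NDUFB4 and Ndufb4, listed in the same way.

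**Figure D4:**
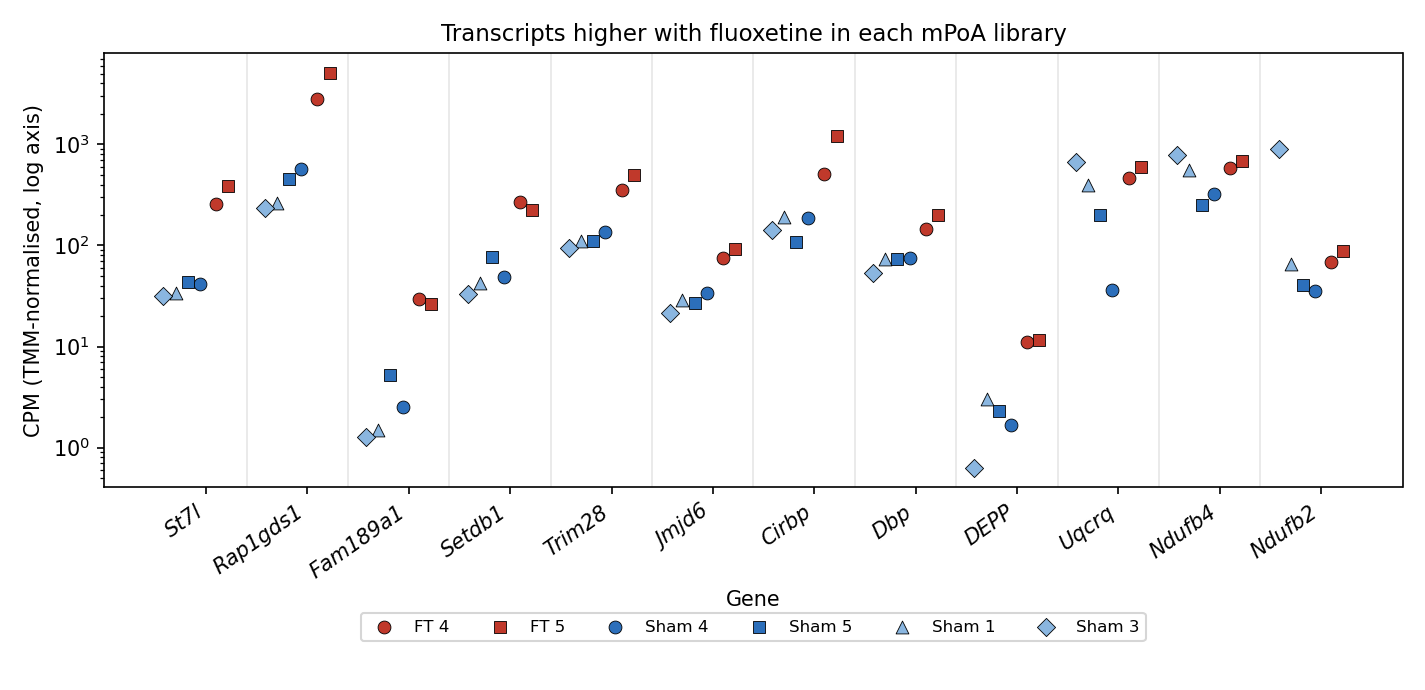
TMM-normalised CPM on a log axis for 12 DEGs higher in FT, with red for FT, dark blue for the paired Sham libraries and light blue for Sham 1 and Sham 3. St7l, Rap1gds1, Fam189a1, the chromatin genes and Cirbp, Dbp and DEPP have both FT libraries above all Sham libraries, whereas Sham 3 lies above FT for Uqcrq (675 CPM), Ndufb4 (793 CPM) and Ndufb2 (907 CPM).

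Of 47 transcripts tested of genes that the study names for bulk RNA-seq, 16 were higher and 17 lower in mPoA. These genes were picked in part on these samples and their direction is not independent evidence. Besides the genes above, the rises were led by Pde6h, a phosphodiesterase inhibitory subunit (32.8 and 39.4 CPM in FT, 0 to 7.79 CPM in Sham), and Fzd6, a Wnt receptor (29.1 and 36.9 CPM in FT, 1.59 to 7.52 CPM in Sham). Both were called by DESeq2.

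The mPoA response was set beside 3 nearby regions, the bed nucleus of the stria terminalis (BNST), PVN, which the study's region list places in the thalamus, and the lateral hypothalamus (LH), in replicates 4 and 5. Their libraries are separate from those of mPoA but carry the same replicate numbers, and the pooled animals may be the same. Of the 722 higher mPoA DEGs, 701 had a log2FC above 0 in BNST, 699 in PVN and 692 in LH. Of the lower DEGs tested jointly, 685 of 702, 617 of 698 and 645 of 702 were below 0. Median log2FC of the higher DEGs was 1.16 in mPoA and 0.90 in BNST, and that of the lower DEGs -1.28 and -0.85. The DEGs were chosen by their mPoA values in these replicates, which favours larger medians in mPoA. The medians therefore do not compare the strength of response between regions. Of the 1428 DEGs, 785 had a name from the study's list of transcripts changed in several regions. Their like sign in the neighbours is therefore not independent evidence. The share of like signs over all transcripts tested jointly was not computed.

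The difference between regions was tested as an interaction in edgeR, and 0 transcripts passed in each of the 3 tests. On simulated counts for mPoA and BNST this test recovered almost none of the differences put in, so the count of 0 does not show that the regions respond alike. At an unadjusted p under 0.05 there were 266 of 14977 for BNST, 359 of 15158 for PVN and 643 of 15496 for LH, and DESeq2 called 0, 1 and 5. When each replicate number was given its own treatment term, common to the 2 regions, 197 (1.32%), 0 and 1658 (10.7%) were called, so the count depended on how the replicates were modelled. The fit with the shared term was not tested on simulated counts. It leaves fewer residual degrees of freedom than the main interaction test. It also takes the change in FT effect between replicates to be the same in both regions. Its adjusted p values are therefore not strong evidence of a regional difference.

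The fitted values of a few genes were far apart. Npvf, at 7.54 in mPoA in the joint fit with BNST, had a log2FC of 0.71 ± 0.91 in BNST, -3.27 ± 1.34 in PVN and -0.05 ± 0.65 in LH. The differences were 6.83 ± 1.29, 10.66 ± 1.5 and 7.58 ± 0.99 (edgeR, adjusted p = 1.00, 1.00 and 0.275). With the shared replicate term, the Npvf difference passed against BNST and LH (edgeR, adjusted p = 4.18e-04 and 1.91e-08) and not against PVN (0.249). Vip had -0.34 ± 0.37 in BNST, 0.08 ± 0.48 in PVN and 1.15 ± 0.28 in LH, where the difference was -3.31 ± 0.41 (adjusted p = 0.275 in edgeR). With the shared term Vip passed against BNST and LH (edgeR, adjusted p = 0.00601 and 1.45e-10) and not against PVN (0.249). Gabrd had 0.10 ± 0.24 in BNST, and its log2FC in mPoA was lower than that in LH by a difference of -2.71 ± 0.42 (edgeR, adjusted p = 0.616). With the shared term Gabrd passed against BNST and LH (edgeR, adjusted p = 0.00178 and 3.14e-09), as did St7l (2.54e-04 and 8.49e-05). A rise of St7l was not particular to mPoA, as its FT over Sham ratio was positive in 23 of 24 other regions in pair 4 and in 24 in pair 5. The highest ratios there, 2.77 and 3.68 on the log2 scale, exceeded those of mPoA, 2.62 and 3.16. Gal rose in the BNST fit by 2.05 ± 0.31 and had -0.44 ± 0.31 in PVN.

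In other genes the values were alike in sign. Kcnk9 had a log2FC of -3.20 ± 0.67 in BNST, -2.47 ± 0.62 in PVN and -3.14 ± 0.51 in LH. Rap1gds1 had 2.67 ± 0.36, 2.23 ± 0.41 and 2.77 ± 0.42. Over all 24 other regions, the ratio of FT over Sham was positive for Rap1gds1 in 24 in pair 4 and 24 in pair 5, and for Kcnk9, Cplx2, Cds2 and Gna11 in 0 and 0. Vip by contrast was positive in 14 and 20 of the 24, with medians of 0.10 and 0.48 on the log2 scale. The lowest Vip ratio of pair 4 was -2.40 in Arc, below the -2.20 of mPoA. In pair 5 the lowest was -0.99 in LC, against -2.03 in mPoA. Npvf was positive in 12 and 11, with medians of 0.04 and 0.00 and maxima of 1.99 and 2.77, both below its mPoA ratios of 7.70 and 3.38.

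**Figure D5:**
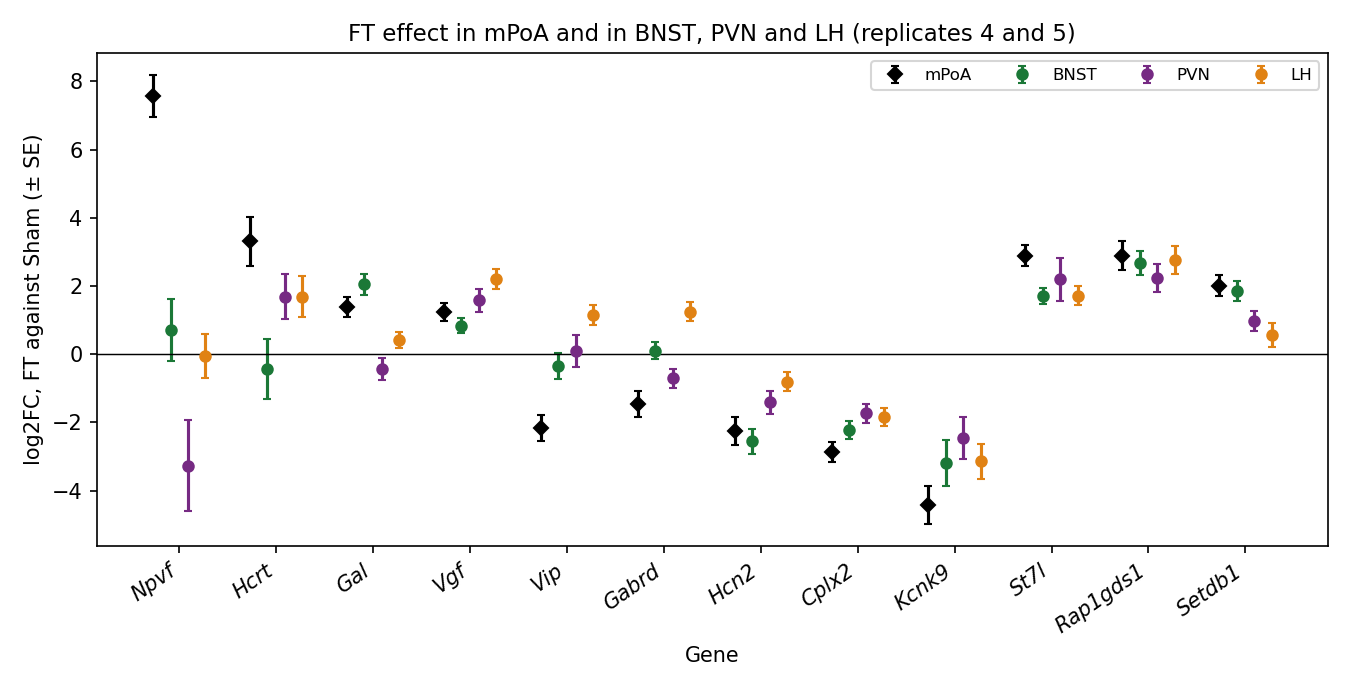
The edgeR log2FC ± SE of FT against Sham for 12 genes in mPoA (black diamonds) and in BNST (green), PVN (purple) and LH (orange), with the neighbours fitted on replicates 4 and 5. Npvf (7.56) and Vip (-2.16) in mPoA lie apart from BNST, PVN and LH, while Kcnk9 lies below 0 and Rap1gds1 above 0 in every region shown. None of the 12 genes passed edgeR's interaction test, while Npvf, Vip, Gabrd and St7l passed against BNST and LH with the shared replicate term, and Gal, Vgf, Hcn2, Cplx2 and Setdb1 against LH. The fit with that term leaves fewer residual degrees of freedom and was not tested on simulated counts.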

How the data were processed

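RNA from pooled mPoA punches was sequenced as paired 76 bp reads from a stranded total RNA kit. The authors aligned the reads with STAR to rn5 and deposited raw read counts per Ensembl transcript from HTSeq, with no normalisation. Tool versions and the strand setting of counting are not given in the sources used here. The last 5 lines of each file hold summary counts and were dropped. Reads outside features made up 25.7% to 49.9% and ambiguous reads 3.37% to 6.15%.

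The counts were normalised by TMM and filtered by filterByExpr by treatment (minimum count 10, minimum total 15) in edgeR 4.0.16 (R 4.3.3). The quasi-likelihood test of FT against Sham had replicate blocks and Benjamini-Hochberg adjustment over all transcripts tested. The SE was taken as the size of the log2FC over the root of F. CPM are TMM-normalised, and log2 CPM used a prior count of 2. Levels in 25 regions used TMM factors computed within each region, with no common set over all libraries. Ranks across regions therefore rest on separate factors. DESeq2 1.42.0, the study's tool, and limma 3.58.1 were alternatives, as were no block, 4 libraries only, median-ratio factors, no filter, an adjusted p of 0.05 and each library left out. Scripts were tested on simulated counts, on which the test of a difference from BNST had almost no power. For FT against Sham with the block, edgeR called 37 of 100 changes of log2FC 1 and 95 of 100 of log2FC 2. It also called 20 unchanged transcripts. DESeq2 called 21 and 80 of these changes and 4 unchanged transcripts. The simulated spread followed the trend across transcripts, with none particular to a transcript. These counts can therefore be better than those for real transcripts. Tables and figures were made in Python 3.11.15 with pandas 2.3.3 and matplotlib 3.10.9.

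The pairing comes from the study's statement that FT and Sham of a replicate were processed in parallel. Deviations from the group means correlated across 14886 transcripts with r = 0.19 for number 4 and -0.07 for number 5. Unmatched numbers reached as much (r = 0.19 for FT 5 with Sham 3 and 0.07 for FT 4 with Sham 5), and with 2 FT libraries the values of FT 5 mirror those of FT 4, so the data alone do not single out the matched numbers.

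Names came from a supplementary list of the study that names 1844 transcripts, each called there in several regions. Named genes were those among the 10 largest rises and falls of at least 5 CPM in the higher group with the same sign in both pairs, up to 4 DEGs per list and direction, or the 2 most abundant members where none was called, and Npvf and Kcnk9. A few genes that this rule names, and the microglial markers, are not reported here. Members and lists were chosen with earlier results of these data known. Intervals of read ratios are Clopper-Pearson at 95% and, like the limit of 3 reads behind a count of 0, cover counting error only. With 2 against 4 libraries, an exact two-sided permutation test of a single gene cannot go below p = 0.133.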

Additional observations from a re-analysis of the deposited data

Results flagged for a closer look

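In 6 of 86 named transcripts 1 Sham library stood apart from the other 3 on the log2 CPM scale by Dixon's test, which flags about 1 group in 20 by chance. Sham 3 was the high library for Atp5d (615 CPM), NDUFB4 (49.5 CPM), Rpl18 (577 CPM) and Oxt (3560 CPM), and the low library for Dbp (53.9 CPM). Sham 1 was the low library for Rps19 (424 CPM). Sham 3 has no FT partner, so it did not enter the fold changes of the block fit.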

How the results depend on the processing

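With the replicate block, the count of 1428 DEGs stayed within 1.5 times under an adjusted p of 0.05 (999), median-ratio factors (1532), no filter (1318), replicates 4 and 5 only (1449) and without Sham 1 or Sham 3 (1574 and 1467). It moved with DESeq2 (584 with the block, 560 without), with edgeR without the block (1) and with limma-voom and a random block (17). Leaving out 1 library at a time without the block gave 0 to 213 DEGs, the highest of these without Sham 3 and 0 without Sham 1. With the block, leaving out replicate 4 or 5 leaves no residual degree of freedom and was not run as a test. The share of DEGs called higher was 50.6% in edgeR and 39.1% in DESeq2 without the block. Counts per gene list moved by at most 2 without Sham 3 and by up to 9 in DESeq2 with the block. Depth limits genes such as Npvf, Htr1a and Chrm1, which have under 20 reads in several libraries.

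Without the block the log2FC turned negative in edgeR and DESeq2 for Vbp1 (-2.29, -2.31), RGD1566239 (-2.37, -2.43), NDUFB4 (-0.51, -0.54), Ndufb2 (-1.74, -1.73), RPLP1 (-2.58, -2.58), Rplp1 (-2.66, -2.65), Rps18 (-0.11, -0.10), Hbb-b1 (-0.78, -0.78), PENK (-0.59, -0.58) and Oxt (-6.57, -6.56), and in DESeq2 alone for Hcrt (-0.0924). limma-voom gave -0.13 for RPLP1, -0.29 for Rplp1, -0.072 for Hbb-b1, -0.37 for PENK and -0.94 for Oxt, and pair 5 alone gave -0.0066 for Rplp1. Hbb, at -0.0034 in edgeR with the block, had 0.0033 in DESeq2 with the block, 0.0118 with no filter, and -1.85 in edgeR without the block. With 1 library left out and no block, the log2FC ranged from -2.71 to 0.84 for Vbp1, -2.97 to 1.34 for RGD1566239, -1.24 to 2.87 for Hcrt, -0.85 to 1.11 for NDUFB4, -2.11 to 0.72 for Ndufb2, -3.00 to -0.0526 for RPLP1, -3.08 to -0.16 for Rplp1, -0.38 to 0.40 for Rps18, -1.09 to 0.10 for Hbb-b1, -0.78 to -0.32 for PENK and -7.80 to 0.18 for Oxt. For each of these 11 genes the highest value is the one without Sham 3. The cause was not tested.

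The 0 called differences from BNST, PVN and LH became 12, 6 and 30 with no filter, 0, 1 and 5 in DESeq2, 0, 0 and 1 with all replicates, and 197, 0 and 1658 with the shared replicate term. Without mPoA replicate 4 they were 84, 12 and 36, and without mPoA replicate 5 they were 13, 2 and 25.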
